A study of Homo sapiens with 9 samples.

Results

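Antisense genes are transcribed from the strand opposite to another gene, often across part of it, and this account covers those lying outside chromosome 19. The members were all genes of type antisense in the deposited count table on chromosomes 1 to 22 other than 19, except small nucleolar RNA host genes (names starting with SNHG) and 5 single antisense genes set aside by name. They numbered 4867 of 5276 antisense genes and of 57820 genes in all; 285 antisense genes lay on chromosome 19, 116 on the X, Y or mitochondrial chromosome, and 8 were left out by name. Each member was paired with the opposite-strand gene that overlapped it, protein-coding genes first and then the longest overlap, and 4254 members (87.4%) had such a partner.

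Chrom-seq marks RNA near a chromatin modification in living HEK293T cells, an established human embryonic kidney line. A reader domain recruits the peroxidase APEX2 through a SunTag array of GCN4 epitopes, APEX2 biotinylates nearby RNA, and streptavidin beads capture it. All 9 libraries came from cells that carried the APEX2 fusion and a GCN4 construct for 48 hours. They were given 500 µM biotin-aniline over 30 min, followed by hydrogen peroxide (1 mM) over 1 min. The groups, of 3 libraries each, differed in the reader: the chromodomain module of CBX1, which binds H3K9me3 (CBX1), the same module with the amino acid change W42A (CBX1_W42A), or none (Control). The labels of all 9 libraries, Control included, also carry the term NLS and do not explain it. They do not say whether the CBX1_W42A libraries were made along with the others. A difference in batch and one in reader thus cannot be told apart for that group. The constructs were introduced by transfection, so the cells hold their own CBX1 too, and the labels do not say whether replicates were separate cultures; p-values then measure the spread between these libraries. The libraries held 8379542 to 11082852 counts, and 2278 to 2661 members had a count in any one of them. Of 6 genes listed as HEK293T markers, all were counted in every library, from 4.07 CPM (counts scaled to a common library size) for PAX2 to 613 CPM for VIM. Of 8 markers of blood, liver, muscle and glia, CD3E, HBB and APOA2 were at 0 throughout, and PTPRC, a blood marker, reached at most 0.193 CPM. GFAP, the glia marker, was counted in every library, at 1.70 to 5.49 CPM. ACTA1, a muscle actin, lay at 5.53 to 6.76 CPM in Control and at 17.4 to 28.1 in the reader libraries, while MYH7, the other muscle marker, reached at most 0.334. LIN28B, a HEK293T marker, was lower in the reader libraries (96.5 to 115 CPM) than in Control (138 to 150). ALB, a liver marker, lay at 0.388 to 1.13 CPM in Control and 1.06 to 2.78 with CBX1, with overlap. The part of these genes in the results below was not tested.

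Many antisense transcripts are long noncoding RNAs that remain near their site of transcription, and some, such as HOTAIR and CDKN2B-AS1, are known for ties to silent chromatin. Others start from the same promoter region as a protein-coding gene on the other strand and are made along with it. H3K9me3 is a mark of constitutive heterochromatin, and the CBX1 protein (HP1β) binds it through its chromodomain.

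Start regions are shown for the 5 members with the smallest adjusted p in CBX1 against Control whose window held no annotated UTR, so that sequence at the start can be set beside the counts. Each window runs from 100 bases before to 50 bases after the gene start, 5′ to 3′ on the strand of the antisense gene (GRCh37, hg19), with CG dinucleotides in capitals. The windows lie at chr10:1068506-1068655 (plus strand, IDI2-AS1), chr2:98280580-98280729 (plus, AC017099.3), chr6:96969496-96969645 (minus, UFL1-AS1), chr15:101835524-101835673 (plus, RP11-299G20.2) and chr14:24030206-24030355 (plus, RP11-66N24.3).
IDI2-AS1: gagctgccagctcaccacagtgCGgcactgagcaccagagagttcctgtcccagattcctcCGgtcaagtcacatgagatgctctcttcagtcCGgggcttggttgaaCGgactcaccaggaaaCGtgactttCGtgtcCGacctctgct
AC017099.3: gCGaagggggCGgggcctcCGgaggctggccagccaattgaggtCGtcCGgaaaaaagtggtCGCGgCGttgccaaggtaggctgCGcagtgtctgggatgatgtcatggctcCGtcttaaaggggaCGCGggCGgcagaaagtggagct
UFL1-AS1: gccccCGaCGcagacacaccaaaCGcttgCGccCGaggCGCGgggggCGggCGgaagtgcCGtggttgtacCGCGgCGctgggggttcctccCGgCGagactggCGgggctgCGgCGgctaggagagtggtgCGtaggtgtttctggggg
RP11-299G20.2: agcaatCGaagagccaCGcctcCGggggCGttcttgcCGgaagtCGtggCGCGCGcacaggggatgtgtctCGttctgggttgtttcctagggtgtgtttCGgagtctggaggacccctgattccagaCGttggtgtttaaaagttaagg
RP11-66N24.3: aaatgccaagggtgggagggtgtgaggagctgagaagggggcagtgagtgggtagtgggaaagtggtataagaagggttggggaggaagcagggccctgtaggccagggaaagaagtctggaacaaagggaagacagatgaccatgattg

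The windows held 7 CG dinucleotides in IDI2-AS1, 13 in AC017099.3, 19 in UFL1-AS1, 12 in RP11-299G20.2 and 0 in RP11-66N24.3. Enriched members thus included starts with no CG and starts dense in it. On either strand, GGGCGG was present in the windows of AC017099.3 and UFL1-AS1, CCAAT only in that of AC017099.3, and TATAAA in none of the 5. In windows of the same length, GGGCGG was in 17.1% of the members and 19.9% of all genes, CCAAT in 16.9% and 22.1%, and TATAAA in 6.99% and 8.55%. Among the members tested in CBX1 against Control these shares were 30.3%, 16.2% and 4.78%, and among the enriched members 30.9%, 21.4% and 3.05%.

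By position, 2603 members (53.5%) lay wholly inside the span of their partner, 744 (15.3%) overlapped it at the 5′ ends (head to head), 706 (14.5%) at the 3′ ends (tail to tail), 201 (4.13%) contained the partner, and 613 (12.6%) had none. The median span was 4.83 kb for the members and 58.7 kb for the partners. The partners were 3430 genes, of which 604 had more than 1 member, so pairs are not independent of each other. The 207 members that other genes of their own strand cover completely had no count at all, so reads shared within a strand went uncounted. A count was recorded for 3534 members, and 1333 were at 0 in all 9 libraries.

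Counts followed the strand. Among 1588 members inside a partner with more than 1000 counts over the 9 libraries, the antisense count had a median of 0.118% of the partner count and was 0 in 475. RP11-242O24.5, which lies inside SRSF4, a splicing factor gene, had 0 counts beside 70741 for SRSF4. The strands were thus counted apart, although a small spill of partner reads cannot be told from antisense reads.

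The antisense share of all gene counts was 0.569%, 0.573% and 0.623% in the Control libraries, 0.732%, 0.759% and 0.764% with CBX1_W42A, and 0.809%, 0.817% and 0.842% with CBX1. Every library of one group stood apart from every library of the other groups, in the order Control, CBX1_W42A, CBX1. The mean share with CBX1 (0.823% ± 0.0171, SD, n = 3) was 1.40 times that in Control (0.589% ± 0.0303, SD, n = 3), and that with CBX1_W42A (0.751% ± 0.0174, SD, n = 3) was 1.28 times. CBX1 was at 1.095 times CBX1_W42A. For each of the 3 differences the exact two-sided permutation p was 0.1, the smallest that 3 against 3 libraries allow. The partners took 17.83% to 18.14% of counts in Control, 17.55% to 17.75% with CBX1_W42A and 17.72% to 17.76% with CBX1. Every reader library thus lay below every Control library for the partners (exact two-sided permutation p = 0.1 for each reader), by a ratio of 0.984 with CBX1 and 0.979 with CBX1_W42A. The readers overlapped each other (exact permutation p = 0.3). In these bulk libraries, more capture of an RNA, more RNA per cell and more cells with it cannot be told apart, and input RNA was not analysed here.

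**Figure D1:**
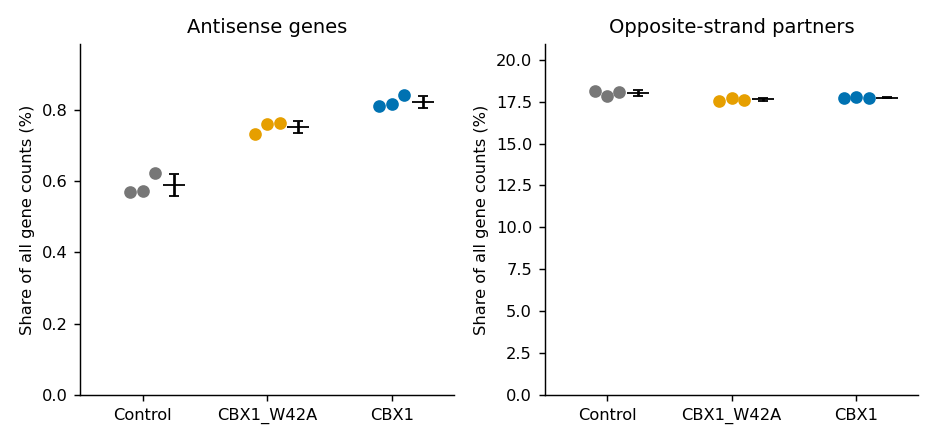
Share of all gene counts (%, from 0) taken by the 4867 antisense genes (left) and by their 3430 partners (right), with 1 point per library and the mean ± SD of 3 libraries beside each group. The antisense share was lowest in the 3 Control libraries (0.569% to 0.623%) and highest in the 3 CBX1 libraries (0.809% to 0.842%), while the partners stayed between 17.6% and 18.1% in all 9.

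To ask which antisense RNAs were captured with the H3K9me3 reader, CBX1 was compared with Control gene by gene. Of 1735 members with more than 18 counts over the 6 libraries, 262 (15.1%) were enriched; a call required a log2 fold change of 0.75 or more with an adjusted p under 0.05 in edgeR's quasi-likelihood test. The share of all 18837 genes tested was 7.06%. Another 7 members (0.403%) were depleted, against 0.34% of all genes. The median log2 fold change was 0.50 in the members and 0.03 over all genes tested. Positive values were found in 1355 members (78.1%) and in 52.9% of all genes tested. These values are not at like counts: with 3 to 10 mean counts per library the medians were 0.55 in members and 0.71 in other genes. The enriched members rose by a median log2 of 1.29, from a median of 1.84 CPM in Control to 4.60 with CBX1, and stood at 3.26 with CBX1_W42A. Calling on Control and CBX1 values can by itself place CBX1_W42A between them, so these medians are a description only. In 253 of the 262, the lowest CBX1 library exceeded the highest Control library, as it did in 525 of the 1735 tested. The calls came from these same libraries, so this separation is a description and no added support. The count over all genes is not given here. Fewer calls were made without Control replicate 1 (168 enriched) or CBX1 replicate 1 (172 enriched), and the depleted count lay between 1 and 9 when single libraries were left out.

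Enriched calls were fewer among the partners, but this contrast was not made at like counts. Over the 9 libraries the tested partners had a median of 30.6 CPM, far above that of the tested members. Among genes other than the members, the enriched share was 17.4% with 10 to 30 mean counts per library and 0.415% over 300. Of 2800 partners tested, 124 (4.43%) were enriched and 13 (0.464%) depleted, with a median log2 fold change of -0.04. The enriched count was 81 without CBX1 replicate 1. Per kb of whole gene span, introns included, the median of the tested members was 0.176 CPM in Control, 0.233 with CBX1_W42A and 0.256 with CBX1. That of the tested partners was 0.413, 0.403 and 0.392 CPM per kb. These values are not per kb of transcript, so they do not rank members against partners in abundance. By gene type over the whole table, 16.1% of 1178 long intergenic noncoding RNA (lincRNA) genes outside chromosome 19 were enriched and 4.76% of 14405 protein-coding genes. Both types include partners of members, so the protein-coding share is not independent of the partner share above.

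**Figure D2:**
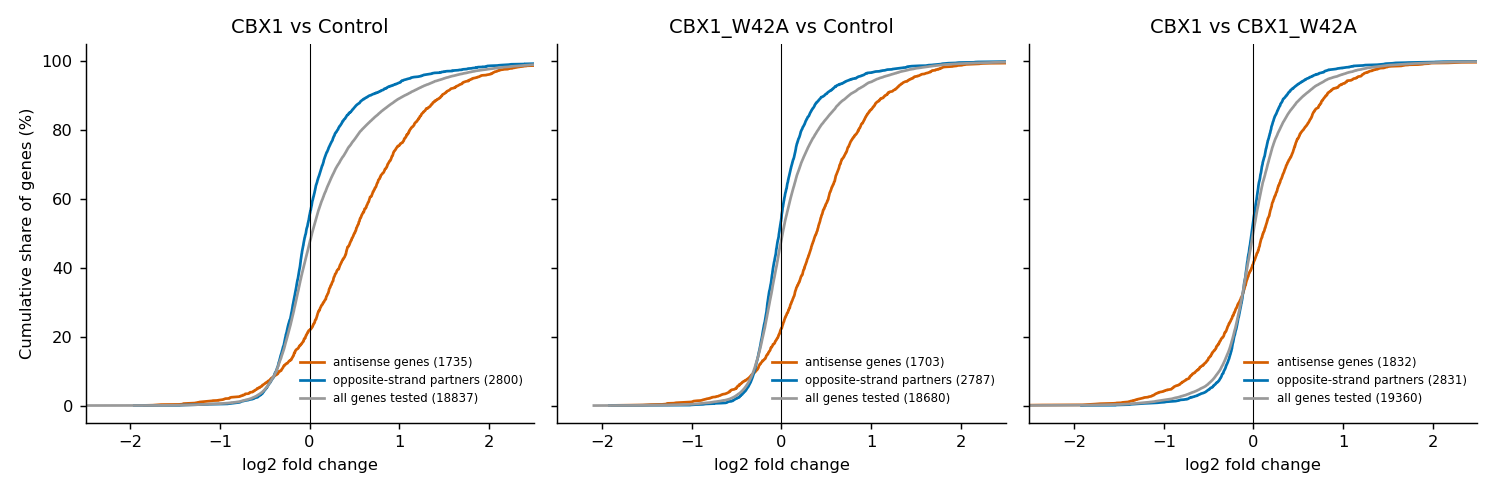
Cumulative share of genes (%) against log2 fold change, for antisense genes, their partners and all genes tested, in each comparison; numbers of genes stand in the legends. Above a log2 fold change of about 0 the antisense curve lies to the right of both others against Control (medians 0.50 with CBX1 and 0.39 with CBX1_W42A) and closer to them between CBX1 and CBX1_W42A (median 0.11).

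The 10 enriched members with the smallest adjusted p lay on chromosomes 1, 2, 3, 6, 10, 11, 14 and 15. IDI2-AS1 (chr10:1068606-1090138, plus strand) overlaps the 3′ end of IDI1, the isomerase that makes dimethylallyl diphosphate for sterol synthesis. Its level was 2.23, 2.601 and 4.71 CPM in Control, 8.79, 14.3 and 9.21 with CBX1_W42A, and 16.3, 13.5 and 13.6 with CBX1. Both reader groups lay above all Control libraries, and the log2 fold change with CBX1 was 2.23 ± 0.24 (SE; adjusted p = 1.93e-05). IDI1 itself was at 157, 202 and 185 CPM in Control and at 229, 159 and 210 with CBX1, with overlapping groups and a log2 fold change of 0.16.

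AC017099.3 (chr2:98280680-98319527, plus strand) contains RNU4-8P, a pseudogene of the U4 small nuclear RNA with no count in any library. It was at 6.40, 6.45 and 6.16 CPM in Control, 8.24, 13.2 and 8.36 with CBX1_W42A and 19.8, 18.8 and 15.6 with CBX1. The 3 groups did not overlap, with a log2 fold change of 1.53 ± 0.16 (adjusted p = 2.05e-05). UFL1-AS1 (chr6:96806250-96969545, minus strand) starts 0.074 kb from the start of UFL1, the ligase of the ubiquitin-like modifier UFM1, and runs the other way for 163 kb. It was at 6.01, 6.56 and 5.92 CPM in Control and at 15.9, 18.2 and 16.2 with CBX1, a log2 fold change of 1.46 ± 0.16 (adjusted p = 2.68e-05). UFL1 was at 67.4, 78.9 and 61.3 CPM in Control and 57.1, 63.4 and 63.4 with CBX1. The antisense groups were far apart, and those of UFL1 overlapped.

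RP11-656D10.3 (chr1:40958829-40974333, minus strand) meets the 3′ end of ZFP69, a zinc finger gene. It was at 2.13, 2.38 and 3.62 CPM in Control, 4.67, 5.37 and 6.03 with CBX1_W42A, and 10.1, 12.3 and 10.5 with CBX1. The groups rose in that order without overlap, and the log2 fold change of CBX1 against Control was 2.05 ± 0.23 (adjusted p = 3.31e-05). RP11-299G20.2, tail to tail with the proprotein convertase gene PCSK6, went from 6.69, 5.43 and 4.95 CPM in Control to 17.0, 22.8 and 14.4 with CBX1 (log2 fold change 1.67 ± 0.20, adjusted p = 5.06e-05). PCSK6 had a log2 fold change of -0.00178, the smallest in size among the partners of these 10.

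The other 5 of the 10 lay across or beside genes of varied function. RP11-499P20.2, opposite the calcium channel subunit gene CACNB2, rose by a log2 of 1.08 ± 0.14 (adjusted p = 0.000117). CACNB2 had a log2 fold change of 0.72 (adjusted p = 0.00613), just under the fold threshold. RP11-66N24.3, on nearly the whole of the clathrin adaptor gene AP1G2, rose by 0.88 ± 0.12. RP11-944L7.4, which contains ZNF197, a zinc finger gene, rose by 1.30 ± 0.18. RP11-91P24.7, inside AAMDC, rose by 2.099 ± 0.30, and AAMDC had a log2 fold change of 0.56 (adjusted p = 0.00417).

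RP11-352G18.2 and its partner moved apart. RP11-352G18.2 lies inside DIS3L, a cytoplasmic exonuclease of the exosome, and was at 6.79, 5.43 and 5.79 CPM in Control, 9.70, 9.68 and 7.62 with CBX1_W42A, and 16.9, 12.2 and 14.6 with CBX1 (log2 fold change 1.29 ± 0.18, adjusted p = 0.000233). DIS3L was at 51.4, 56.2 and 49.1 CPM in Control, 35.2, 38.2 and 35.4 with CBX1_W42A, and 24.9, 31.7 and 35.3 with CBX1. DIS3L was lower in every reader library than in any Control library, with a log2 fold change of -0.745 ± 0.12 (adjusted p = 0.000752) that came just short of the fold threshold.

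**Figure D3:**
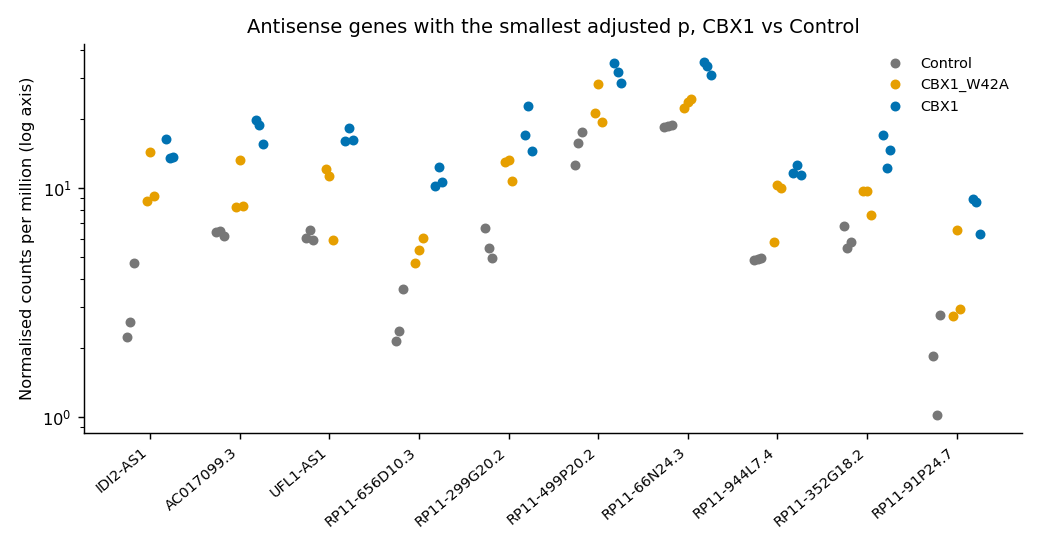
Normalised CPM (log axis) of the 10 enriched antisense genes with the smallest adjusted p in CBX1 against Control, with 1 point per library. By the rule that chose them, the 3 CBX1 points lie above the 3 Control points for each gene; the CBX1_W42A points lie between or touch either group.

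Among the 7 depleted members, 4 of the 5 with the smallest adjusted p had at most 37 counts in any Control or CBX1 library. MNX1-AS1, the best counted of the 5, lies beside the motor neuron homeobox gene MNX1 and has no overlapping partner. It was at 7.18, 11.8 and 8.21 CPM in Control and 5.01, 4.21 and 5.997 with CBX1 (log2 fold change -0.80 ± 0.23, adjusted p = 0.0208). The groups did not overlap, and CBX1_W42A, at 7.51 to 9.47 CPM, lay with Control. RP11-264F23.3, head to head with the cyclin gene CCND2, had 17, 11 and 14 counts in Control and 3, 4 and 6 with CBX1 (log2 fold change -1.69 ± 0.52, adjusted p = 0.0284). RP11-53I6.4 inside RNF138, RP11-301H24.4 inside SMAD1 and RP11-582J16.3 inside SORBS3 had log2 fold changes of -1.41, -1.41 and -1.27. Each of these 5 calls was lost on leaving out any one of at least 3 of the 6 libraries. MNX1-AS1, for example, stood at -0.58 without Control replicate 2 (adjusted p = 0.0905). Without Control replicate 3, RP11-301H24.4 stood at -0.97 (adjusted p = 0.186), and without Control replicate 1, RP11-582J16.3 stood at -0.99 (adjusted p = 0.177).

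The ratio of antisense to partner was then tested within each library, with the library as a block. Of 1354 member pairs with both genes counted, the ratio was higher with CBX1 in 132 (9.75%) and lower in 2 (0.148%), with a median log2 change of 0.47. Over all 1510 antisense pairs of the table, chromosome 19 included, the shares were 9.27% and 0.132%. The number with a higher ratio was 85 without Control replicate 1 and 58 without CBX1 replicate 1, and the number lower was 0 without Control replicate 1 and 1 without CBX1 replicate 1 or 3. Of the 262 enriched members, 25 had no partner, 47 had a partner too low to test, and 190 were in this test. Among those 190, the partner was also enriched in 13 (6.84%) and depleted in 0, and its median log2 fold change was -0.02. Over all 1354 pairs the partner was enriched in 33, so 13 of these 33 lay opposite an enriched member.

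The pairs with the smallest adjusted p of the ratio included IDI2-AS1 with IDI1 (log2 change of the ratio 2.09 ± 0.30, adjusted p = 0.00125), RP11-656D10.3 with ZFP69 (2.36 ± 0.34) and RP11-352G18.2 with DIS3L (2.05 ± 0.30). CTD-3065B20.3, inside CRTC3, a coactivator of CREB, was at 0.970, 0.565 and 1.09 CPM in Control, 2.47, 2.21 and 2.01 with CBX1_W42A and 5.23, 4.10 and 4.35 with CBX1. CRTC3 was at 92.7, 78.3 and 80.6 CPM in Control and 69.8, 63.1 and 64.5 with CBX1. The antisense gene rose without overlap while CRTC3 had a log2 fold change of -0.33 (adjusted p = 0.0262), and the ratio changed by 2.72 ± 0.35 (adjusted p = 0.00125). RP11-83A24.2, tail to tail with NAA15, a subunit of the N-terminal acetyltransferase NatA, rose by 1.20 ± 0.18 beside -0.58 ± 0.09 for NAA15 (adjusted p = 0.000653), and its ratio changed by 1.79 ± 0.27. The 2 pairs with a lower ratio were RP11-264F23.3 with CCND2 (-1.59 ± 0.45) and RP11-307C12.11 with DCST1 (-2.02 ± 0.60).

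The 13 pairs with both genes enriched, named here after their values were seen, showed the other pattern. They included NPPA-AS1 and NPPA, the atrial natriuretic peptide gene (log2 fold changes 1.71 and 2.87), RP11-473M20.7 and the metalloproteinase gene MMP25 (0.85 and 0.99), RP4-728D4.2 and the transcription factor gene TFAP2E (1.25 and 1.85), and RP11-354P11.4 and the serotonin transporter gene SLC6A4 (1.89 and 1.03). In none of these 4 pairs did the ratio of the strands pass its test.

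**Figure D4:**
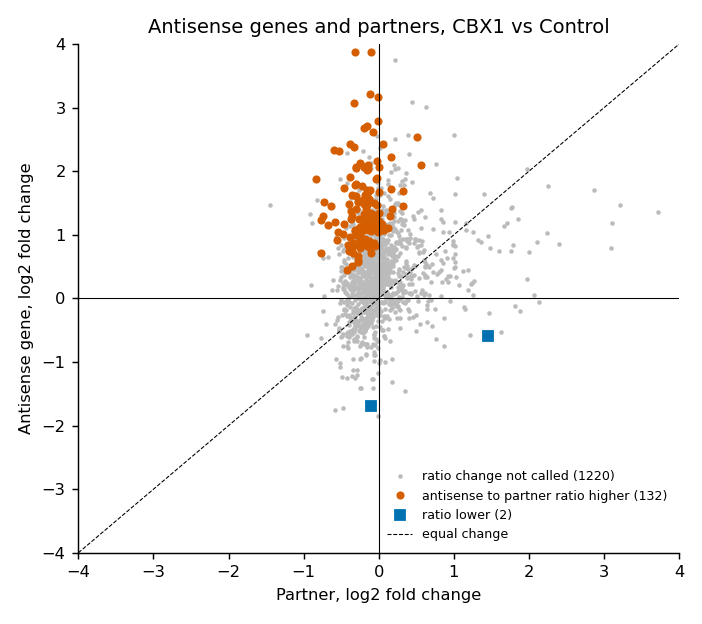
Log2 fold change of the antisense gene against that of its partner in CBX1 against Control, for 1354 pairs, with 1 pair outside the axes; the dashed line marks equal change. The 132 pairs with a higher ratio lie above the line, most with a partner near or below 0, and the 2 with a lower ratio lie below it.

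Position relative to the partner went with different shares of calls, given here as a description. Of members that contain their partner, 33 of 109 tested were enriched (30.3%), of those tail to tail 77 of 390 (19.7%), of those head to head 56 of 442 (12.7%), of those without partner 25 of 201 (12.4%) and of those inside 71 of 593 (11.97%). The median span also differed, at 57.8, 16.8, 9.88, 2.91 and 2.98 kb in that order. Among members spanning more than 8.37 kb, the shares were 31.4%, 21.1%, 18.7%, 30.0% and 18.4%. Partners of head-to-head members were enriched in 17 of 618 (2.75%), with a median log2 fold change of -0.08, although the members themselves had a median of 0.46.

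Span went with the size of the change. In 4 ranges of span divided at 2.39, 8.37 and 30.2 kb, the enriched share rose from 6.22% through 10.6% and 17.3% to 26.3%, and the median log2 fold change from 0.28 through 0.38 and 0.56 to 0.70. The lincRNA genes, set in the same bins, went from 6.99% to 27.3% with medians from 0.40 to 0.85. Protein-coding genes were at 4.24%, 3.55%, 5.21% and 4.82%, with medians from 0.04 down to -0.06. Longer genes hold more counts, so shorter and longer members (up to and over 8.37 kb) were also set side by side at like counts. With a mean of 30 to 100 counts per library, 27 of 160 shorter members (16.9%) and 82 of 194 longer ones (42.3%) were enriched, and the medians were 0.30 and 0.65. With 10 to 30 counts, the shares were 8.33% and 23.1%.

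**Figure D5:**
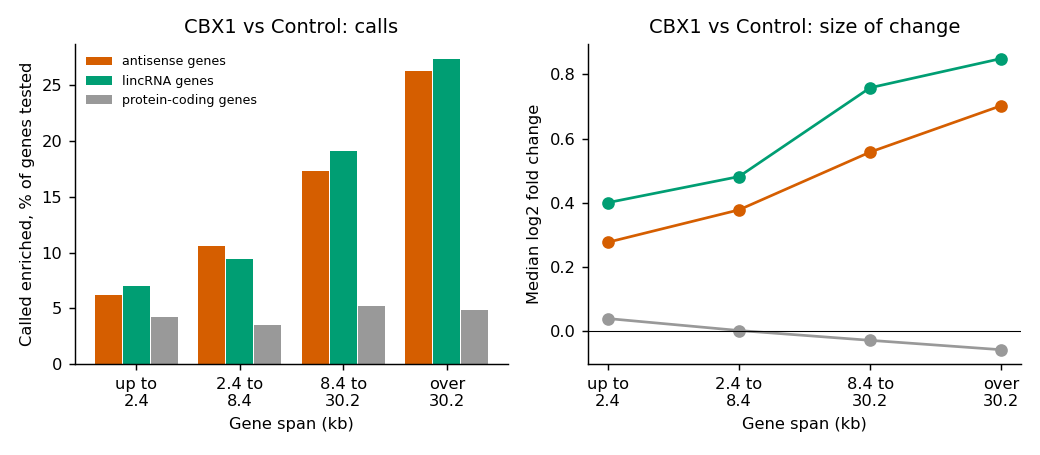
Share of tested genes called enriched (%, left, from 0) and median log2 fold change (right) in CBX1 against Control, by gene span in kb, for antisense, lincRNA and protein-coding genes in the same bins. Among antisense genes the share went from 6.22% to 26.3% and the median from 0.28 to 0.70, and protein-coding genes stayed between 3.55% and 5.21%.

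At like counts, members were enriched more often than other genes only above 30 mean counts per library, as a description. With 30 to 100 mean counts, 109 of 354 members (30.8%) were enriched and 15.5% of other genes, and with 100 to 300 counts 17.4% and 3.60%. Over 300 counts the shares were 8% (2 of 25) and 0.415%. With 3 to 10 counts they were 6.34% of 694 members and 8.50% of other genes, and with 10 to 30 counts 15.9% of 541 members and 17.4%. The median log2 fold changes were 0.55 in members and 0.71 in other genes with 3 to 10 counts, and 0.51 and 0.47 with 10 to 30. With 30 to 100 counts they were 0.49 and 0.19, with 100 to 300 counts 0.34 and -0.004, and over 300 counts 0.12 and -0.13. Annotated exons, taken from a later GENCODE version for the 95.9% of members it holds, made up different parts of the spans. Members with exons on up to 5.21% of their span were enriched in 24.1% of cases, and those with exons on more than 57.9% in 5.61%. These shares were not split by span or counts, so they are not separate from the trend with span.

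The guanine share of each span was also set beside the calls; its part in the results was not tested. In 4 ranges divided at 20.8%, 23.2% and 26.7% guanine, the enriched shares were 19.1%, 20.3%, 13.6% and 7.37%. Longer spans held less guanine; among those over 8.37 kb, 24.1% of members at or under the median guanine share were enriched and 16.6% of those above it. CG dinucleotides at the start went with no trend: in 4 ranges divided at 2, 7 and 14, the shares were 15.3%, 14.4%, 17.2% and 13.5%. By chromosome, the enriched share ran from 5.26% (1 of 19 tested) on chromosome 21 to 30.6% (19 of 62) on chromosome 4.

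The comparison of CBX1_W42A with Control asks how much of the capture remains with the altered module. Of 1703 members tested, 26 (1.53%) were enriched and 0 depleted, against 0.974% and 0.0214% of all 18680 genes. Their median log2 fold change was 0.39, and the median over all genes was 0.01. An unadjusted p under 0.05 was reached by 323 of the 1703 members and by 3599 of the 18680 genes, which are close shares. DESeq2 also gave 0 depleted members. Of 2787 partners, 15 (0.538%) were enriched, with a median of -0.03. The antisense to partner ratio was higher in 21 of 1337 pairs (1.57%) and lower in 0 (edgeR; 236 pairs at an unadjusted p under 0.05; limma 2 lower), with a median change of 0.36, against 1.48% and 0% of 1489 pairs in the table. This comparison shares its Control libraries with the last one. Its calls were few and rested on each library: leaving out Control replicate 1, 2 or 3 left 4, 16 or 8 enriched members, and leaving out CBX1_W42A replicate 1, 2 or 3 left 13, 8 or 5. Without CBX1_W42A replicate 1, 1 member was called depleted. The enriched partners fell to between 1 and 9 and the higher ratios to between 1 and 12 when any of these 6 libraries was left out.

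RP11-83A24.2 had the smallest adjusted p. It was at 7.66, 6.11 and 9.42 CPM in Control, 16.8, 17.3 and 20.6 with CBX1_W42A and 19.4, 17.3 and 15.9 with CBX1. The reader groups overlapped each other and not Control, with a log2 fold change of 1.23 ± 0.19 for CBX1_W42A (adjusted p = 0.00262). IDI2-AS1 followed at 1.77 ± 0.28 (adjusted p = 0.0038). RP11-500G22.2, whose start lies 0.489 kb from that of ATE1, the arginyltransferase gene, rose by 1.13 ± 0.20 (adjusted p = 0.00908). RP5-864K19.4, tail to tail with the rhomboid protease gene RHBDL2, rose by 1.02 ± 0.18 (adjusted p = 0.00909) and RP11-299G20.2 by 1.099 ± 0.20 (adjusted p = 0.00955). RP5-864K19.4 missed the threshold without Control replicate 1 (adjusted p = 0.0511). With CBX1 against Control, RP11-500G22.2 rose by 1.17 ± 0.19 (adjusted p = 0.000798) and RP5-864K19.4 by 1.06 ± 0.16 (adjusted p = 0.000298). Between CBX1 and CBX1_W42A their log2 differences were 0.014 (adjusted p = 0.982) and 0.015 (adjusted p = 0.978).

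CBX1 and CBX1_W42A were then compared directly, which tests the difference between their libraries. Of 1832 members tested, 13 (0.71%) were higher with CBX1 and 5 (0.273%) lower, against 0.795% and 0.201% of all 19360 genes. The median log2 difference was 0.11, beside -0.004 over all genes tested. Of 2831 partners, 10 were higher and 9 lower. No pair of 1450 passed the ratio test in either direction (edgeR; 0% and 0% of all 1614 pairs, with 162 member pairs at an unadjusted p under 0.05); limma on the log2 ratio gave 0 higher and 1 lower. For most members the data did not resolve a difference between the readers. The count of higher members was 2 without CBX1 replicate 1, 4 without CBX1 replicate 3, 6 without CBX1_W42A replicate 1 and 4 without CBX1_W42A replicate 3. The partners higher with CBX1 numbered 2, 4 and 6 without CBX1 replicate 1, CBX1 replicate 3 and CBX1_W42A replicate 3. The count of lower members was 0, 1, 2 and 1 without CBX1 replicate 1, CBX1 replicate 3, CBX1_W42A replicate 2 and CBX1_W42A replicate 3.

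RP11-656D10.3 opposite ZFP69 differed most firmly, by a log2 of 1.0396 ± 0.20 (adjusted p = 0.00694). AC017099.3 was higher with CBX1 by 0.87 ± 0.19 (adjusted p = 0.0143). FAM66C was at 4.39, 5.68 and 5.29 CPM with CBX1_W42A and 10.8, 9.53 and 9.38 with CBX1 (log2 difference 0.95 ± 0.20, adjusted p = 0.0144); it belongs to a family of near-identical copies, so its reads may be split among them. RP11-281O15.4, tail to tail with the glutamate receptor gene GRM6, had 1, 0 and 0 counts with CBX1_W42A and 6, 10 and 10 with CBX1. It thus passed the filter on summed counts through its CBX1 libraries. With 2, 1 and 1 counts in Control, it was too low to be tested in CBX1_W42A against Control. RP11-192H23.7, inside KIAA0100, was at 0.549, 0.526 and 1.06 CPM with CBX1_W42A, 2.90, 1.88 and 3.48 with CBX1 and 1.36, 3.62 and 1.81 in Control. Its CBX1 libraries lay with Control, and CBX1_W42A lay below both (log2 difference 1.95 ± 0.44, adjusted p = 0.0204). KIAA0100 had a log2 difference of 0.41 in the same direction (adjusted p = 0.0425). The call of RP11-656D10.3 held with each library left out, and the other 4 were each lost without some libraries. Without CBX1 replicate 1, AC017099.3 stood at 0.80 (adjusted p = 0.089) and FAM66C at 0.89 (adjusted p = 0.0944). Without CBX1 replicate 3, RP11-192H23.7 stood at 1.74 (adjusted p = 0.115).

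Among members lower with CBX1 than with CBX1_W42A, RP11-797M17.1, head to head with the clock gene CRY1, was at 8.33, 7.79 and 8.04 CPM with CBX1_W42A and 1.89, 4.54 and 4.74 with CBX1 (log2 difference -1.0996 ± 0.27, adjusted p = 0.0305). Control, at 7.57, 3.85 and 7.36 CPM, lay below CBX1_W42A and overlapped CBX1. RP11-881M11.4 opposite TMEM109, RP11-301H24.4 inside SMAD1, GPR158-AS1 and AC025335.1 had log2 differences of -0.82, -1.53, -2.58 and -0.80. Each of these 5 calls was lost on leaving out any one of at least 4 of the 6 libraries. Without CBX1 replicate 1, RP11-797M17.1 stood at -0.79 (adjusted p = 0.174).

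The 5 most abundant members were mostly level. TUG1, a long noncoding RNA on chromosome 22, was at 145, 128 and 135 CPM in Control, 133, 147 and 137 with CBX1_W42A and 123.4, 133 and 132 with CBX1, with overlapping groups and a log2 fold change of -0.05 with CBX1. FGD5-AS1, RP11-498C9.3 opposite ARHGDIA and RP11-31F15.1 opposite SLC16A1 had log2 fold changes of -0.10, 0.12 and -0.12 with CBX1. HNRNPU-AS1 was the exception, at 68.97, 62.4 and 80.5 CPM in Control, 104, 90.9 and 94.7 with CBX1_W42A and 103, 90.3 and 104 with CBX1. Both reader groups lay above Control, but the log2 fold changes of 0.51 (adjusted p = 0.00394) and 0.45 (adjusted p = 0.0487) were under the fold threshold.

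Of 35 well-studied antisense symbols listed, 26 were members, 5 had another gene type and 4 were absent from the table. All 26 were tested, and 1 was enriched with CBX1 (3.85%, median log2 fold change 0.14), 0 with CBX1_W42A (median 0.20), with 6 and 4 at an unadjusted p under 0.05. The shares enriched with CBX1 and CBX1_W42A were 15.1% and 1.53% of all members and 7.06% and 0.974% of all genes. Over all genes, 6448 of 18837 with CBX1 and 3599 of 18680 with CBX1_W42A had an unadjusted p under 0.05. BDNF-AS, opposite the neurotrophin gene BDNF, was at 1.84, 2.15 and 2.17 CPM in Control, 2.38, 2.63 and 2.12 with CBX1_W42A and 4.45, 4.10 and 3.39 with CBX1. Its CBX1 libraries stood above all others, with a log2 fold change of 0.97 ± 0.29 against Control (adjusted p = 0.0262); against CBX1_W42A the difference of 0.74 did not pass (adjusted p = 0.195). CDKN2B-AS1, opposite the cell cycle inhibitor gene CDKN2B, was at 6.79, 6.11 and 7.12 CPM in Control and 8.69, 11.1 and 9.77 with CBX1 (log2 fold change 0.58 ± 0.18, adjusted p = 0.0338), under the fold threshold. HOTAIR was at 14.5, 18.3 and 18.1 CPM in Control, 18.3, 17.3 and 19.6 with CBX1_W42A and 17.0, 19.2 and 17.5 with CBX1, with overlapping groups and a log2 fold change of 0.10 (adjusted p = 0.642).

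Members opposite HOX genes, the clustered homeobox genes of body patterning, were 18, of which 15 were tested in CBX1 against Control; 0 were enriched or depleted (2 at an unadjusted p under 0.05), with a median log2 fold change of 0.17. Of all genes tested, 7.06% were enriched and 0.34% depleted, and 6448 of 18837 had an unadjusted p under 0.05. The median was 0.34 with CBX1_W42A, again with 0 calls. HOXC-AS5, opposite HOXC13, was at 6.11, 10.4 and 7.002 CPM in Control, 11.3, 12.1 and 15.2 with CBX1_W42A and 7.57, 7.75 and 7.93 with CBX1. It was highest with CBX1_W42A, and the log2 difference of CBX1 from CBX1_W42A, -0.73 ± 0.18 (adjusted p = 0.0382), fell short of the fold threshold.

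Members opposite zinc finger genes named ZNF plus a number were 53, of which 23 were tested in CBX1 against Control. Of these 5 were enriched (21.7%) and 0 depleted, beside 15.1% of all members and 7.06% of all genes enriched. The median log2 fold change was 0.55, beside 0.50 in all members. ZNF205-AS1 was at 1.46, 2.49 and 1.45 CPM in Control, 3.30, 3.47 and 2.75 with CBX1_W42A and 5.23, 4.43 and 4.45 with CBX1. The 3 groups did not overlap, and the log2 fold change with CBX1 was 1.41 ± 0.30 (adjusted p = 0.00417). AJ003147.9, opposite ZNF200, rose by 1.17 ± 0.27 (adjusted p = 0.0066), and RP11-203B9.4, opposite ZNF451, by 1.24 ± 0.37 (adjusted p = 0.025). RP11-203B9.4 was also the 1 member of this list enriched with CBX1_W42A (1.51 ± 0.36, adjusted p = 0.0355). Members opposite genes of chromatin regulators were 38, of which 15 were tested and 0 called (5 at an unadjusted p under 0.05), with a median of 0.23, beside the same 7.06% and 0.34% of all genes. Of all genes, 6448 of 18837 had an unadjusted p under 0.05. SMARCA5-AS1, opposite a chromatin remodeler gene, ranged from 0.554 to 2.22 CPM with CBX1 and from 1.33 to 2.38 in Control.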

How the data were processed

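Chrom-seq libraries from HEK293T cells were analysed from the deposited counts, whole numbers of reads per gene without normalization. Per the labels and the study's methods, the authors used fastp (version 0.23.1) for trimming, HISAT2 (version 2.1.0) for alignment to hg19, and featureCounts (version 2.0.1) with GENCODE v19 genes for counting. The methods name a forward strand-specific protocol for a quality check of the reads. The strand option of the counting is not given in the sources used here and was read from the counts, as was the counting of introns. Groups and replicate numbers came from the sample titles, and 0 columns and 0 entries without a gene name were left out.

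Counts were tested with edgeR (version 4.0.16; TMM factors, quasi-likelihood test, Benjamini-Hochberg adjustment over all genes tested) in R (version 4.3.3), on the 6 libraries of each comparison, for genes with more than 18 counts in sum. The thresholds for calls follow the study. CPM values use the TMM factors over all 9 libraries. Partner ratios were tested by the interaction of strand and group with library as a block. Summed shares used an exact permutation test in scipy. No replicates of a group held identical counts; the chi-square per degree of freedom between replicates was 2.26 to 2.69 over members.

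In counts simulated for CBX1 against Control with 200 of 18543 genes changed by log2 1.5, edgeR recovered 75.5%, and for 200 of 1441 pair ratios 58.5%. False calls numbered 5 among genes and 6 among pair ratios. The simulation changed fewer genes than the 1330 called enriched in the real comparison. DESeq2 (version 1.42.0) and limma (version 3.58.1) served as alternatives. Start windows were read from GRCh37 (1 of those examined is not reported here), and exons from GENCODE v44 lifted to that build.

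The genes named were, by rule, those with the smallest adjusted p in each comparison and direction (10 enriched and 5 depleted for CBX1 against Control, 5 for each direction elsewhere), the 5 most abundant and the 5 pairs with the smallest adjusted p of the ratio. Up to 4 genes of each list were added. The members and lists were chosen with earlier results of these data known.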

Additional observations from a re-analysis of the deposited data

How the results depend on the processing

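For CBX1 against Control, the enriched antisense count stayed within 1.5 times of 262 under every alternative except leaving out a library, which gave 168 to 215; the enriched partners then numbered 81 to 130. The 7 depleted antisense genes became 3 with DESeq2, 2 with library size alone, 4 at a log2 fold change of 1 and 1 to 9 with a library left out. Pairs with a higher ratio numbered 58 to 129 with a library left out, and pairs with a lower ratio 14 with limma, 10 where both genes had at least 10 counts in every library and 0 to 2 with a library left out.

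For CBX1_W42A against Control, the 26 enriched antisense genes became 63 without a filter on low counts, 54 with all 9 libraries in one fit and 4 to 16 with a library left out. Depleted ones became 2 without the filter and 0 to 1 with a library left out. Enriched partners became 26 without the filter, 9 at a log2 fold change of 1 and 1 to 9 with a library left out. Higher ratios became 74 at 10 counts in every library and 1 to 12 with a library left out, and lower ratios 2 with limma and 1 at 10 counts.

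For CBX1 against CBX1_W42A, the 13 higher antisense genes became 26 without the filter, 6 at a log2 fold change of 1 and 2 to 14 with a library left out. The 5 lower ones became 10 without the filter, 3 with filterByExpr, 2 with all 9 libraries in one fit, 3 at a log2 fold change of 1 and 0 to 5 with a library left out. Partners higher with CBX1 became 17 without the filter, 6 at a log2 fold change of 1 and 2 to 14 with a library left out. Higher ratios became 6 at 10 counts in every library, and limma gave 1 lower. The causes were not tested.

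Replicate numbers are shared between groups, so deviations of same-numbered libraries were correlated over 14305 genes. The correlations had mixed signs against Control, at -0.186, -0.215 and 0.042 for CBX1 and -0.110, 0.142 and 0.132 for CBX1_W42A. Between the readers they were all positive but small, at 0.168, 0.082 and 0.119. Whether the libraries are paired by number was not tested. With the replicate number as a block, CBX1 against Control gave 183 enriched and 2 depleted antisense genes, 67 higher and 0 lower ratios. CBX1 against CBX1_W42A then gave 30 higher and 8 lower antisense genes and 21 higher partners, beside 13, 5 and 10 without the block.

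The ratio of antisense shares lay between 1.38 and 1.44 for CBX1 over Control, 1.26 and 1.32 for CBX1_W42A over Control and 1.08 and 1.104 for CBX1 over CBX1_W42A with a library left out. Its size depended on the scaling: with summed CPM under the TMM factors, the ratios were smaller, at 1.30, 1.22 and 1.06 in that order. Without the 10 most abundant members the ratios of shares were 1.43, 1.30 and 1.10. Scaling by library size alone moved the median of all genes by 0.09 in CBX1 against Control; the members' median less that of all genes was then 0.47. Of 311 values of named genes under other settings, 14 lost their call and 0 reversed, and of 268 with a library left out 56 lost it and 0 reversed. Both totals include the most abundant members, which were called in no comparison and so could not lose a call or reverse. The lost share among called genes is therefore higher than these totals give. Depth limits these values: 6.34% of members with 3 to 10 mean counts were called and 30.8% of those with 30 to 100.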
